A study of Mus musculus with 26 samples.

Results

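The 10 genes described here encode cytokines that are central to colitis: Il1b, Il18, Tnf, Il6, Il11, Il23a, Il17a, Il22, Ifng and Il10. They were chosen by name, but with earlier results of these data known. They are 10 of the 35975 genes to which the transcripts of the files could be matched. The counts of all transcripts of a gene were summed in each of 26 RNA-seq libraries from the colon of wild-type male C57BL/6J mice (vendor Taconic, starting age about 10 weeks). Mice were fed a standard diet or the same study's diet with GW3965, a synthetic agonist of the liver X receptors (LXR), which are nuclear receptors of oxidized cholesterol. Colon named injured here was taken 22, 43 or 70 days after the carcinogen azoxymethane (AOM, 10 mg/kg) was injected, with 3 samples per diet and day. Per the paper, tissue for RNA came from the distal colon, where tumours form. It reports no macroscopic tumours at day 22, tumours nearly only without GW3965 at day 43, and tumours on both diets at day 70. Tumour content can thus differ between days and diets, and its part in the cytokine values was not tested. The full course included 3 cycles of dextran sodium sulfate (DSS), each of 7 days. Per the paper's methods the cycles came in succession, with regular water between them, and day 22 followed the first cycle. By that schedule the samples of later days had received more DSS, and the time since the last cycle was not the same at all days. Untreated colon, named day 0 here, came from mice given neither agent, with 4 samples per diet of which 2 followed 22 days and 2 followed 43 days of feeding. These mice carry no transgene. Per the labels a single cage per diet supplied both day 22 and day 43, and a single other cage supplied its untreated mice. Diet and cage thus cannot be told apart at those days, whereas each day 70 sample had a cage label of its own. Untreated and injured samples shared no cage label, so treatment and cage cannot be told apart in the comparisons with day 0. The study's reporting summary states that bulk RNA-seq samples were pools of 2 to 3 biological replicates, whereas a figure legend gives 3 to 4 mice at each timepoint. The labels do not say which animals a sample holds, so a sample cannot be taken for 1 mouse here. One of the 4 GW3965 day 0 samples has a title that names the GW3965 diet and a diet label that names the standard diet, and it was placed by its title.

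Cytokines are secreted signals, and most of their genes are transcribed at very low levels until tissue is injured or microbes cross the epithelium. IL-1 beta and TNF come mainly from myeloid cells and act through NF-kB, whereas IL-18 is made in advance by colonic epithelium and, like IL-1 beta, is cut by caspase-1 before release. IL-6 and IL-11, the latter mostly from fibroblasts, act through the shared receptor gp130 and STAT3. IL-23, of which Il23a encodes the p19 subunit, drives T cells and innate lymphoid cells that make IL-17A and IL-22, the latter a signal for epithelial repair. IFN-gamma is the main product of type 1 lymphocytes, and IL-10 restrains inflammation, such that mice without it develop colitis.

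Of the 10 genes, 5 passed the test against day 0 on both diets at all 3 later days, as given below, and the sequences in front of their start sites are shown for this reason. They are RefSeq sequences of GRCm38.p6, from 250 bases before to 50 bases after the start site, written 5′ to 3′ on the strand of the gene, and in each case the start is that of the transcript which took most counts of the gene. Capitals mark matches to the motifs searched: TATAAA on the gene's strand, and on both strands TGANTCA (AP-1), TTGCNNAA (C/EBP), TTCNNNGAA (STAT) and the NF-kB consensus.
Il1b, chr2:129371090-129371389, minus strand: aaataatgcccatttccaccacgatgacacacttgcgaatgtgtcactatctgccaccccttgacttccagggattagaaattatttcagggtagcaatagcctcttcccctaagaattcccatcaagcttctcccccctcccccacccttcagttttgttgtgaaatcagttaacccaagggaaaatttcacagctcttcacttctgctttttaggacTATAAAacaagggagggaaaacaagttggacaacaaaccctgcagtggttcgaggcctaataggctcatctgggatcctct
Tnf, chr17:35201958-35202257, minus strand: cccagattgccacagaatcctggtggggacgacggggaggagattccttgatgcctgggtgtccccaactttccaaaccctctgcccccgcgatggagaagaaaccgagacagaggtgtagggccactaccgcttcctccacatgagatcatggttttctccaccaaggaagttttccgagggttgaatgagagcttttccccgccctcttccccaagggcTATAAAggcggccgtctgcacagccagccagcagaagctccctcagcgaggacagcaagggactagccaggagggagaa
Il6, chr5:30012864-30013163, plus strand: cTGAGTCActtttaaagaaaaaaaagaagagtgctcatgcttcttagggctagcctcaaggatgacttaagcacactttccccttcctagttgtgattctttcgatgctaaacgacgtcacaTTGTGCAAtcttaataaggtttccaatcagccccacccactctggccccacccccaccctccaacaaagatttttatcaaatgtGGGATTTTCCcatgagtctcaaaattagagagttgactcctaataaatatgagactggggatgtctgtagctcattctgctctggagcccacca
Il11, chr7:4778092-4778391, minus strand: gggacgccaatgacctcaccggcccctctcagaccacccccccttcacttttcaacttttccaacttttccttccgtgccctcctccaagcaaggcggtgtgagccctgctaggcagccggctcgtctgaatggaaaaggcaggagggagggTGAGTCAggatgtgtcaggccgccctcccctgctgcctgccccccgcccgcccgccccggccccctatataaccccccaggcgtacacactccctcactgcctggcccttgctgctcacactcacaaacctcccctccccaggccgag
Il17a, chr1:20730655-20730954, plus strand: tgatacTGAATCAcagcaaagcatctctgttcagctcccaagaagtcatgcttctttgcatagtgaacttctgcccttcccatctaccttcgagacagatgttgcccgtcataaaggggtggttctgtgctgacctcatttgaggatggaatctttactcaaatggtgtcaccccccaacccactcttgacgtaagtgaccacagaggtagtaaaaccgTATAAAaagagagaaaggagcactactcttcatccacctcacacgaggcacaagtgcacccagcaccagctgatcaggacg

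With the start site as position 0, TATAAA began at -31 in Il1b, -29 in Tnf and -31 in Il17a, and 8.32% of the 32851 promoters in the table hold it. An AP-1 match began at -249 in Il6, -98 in Il11 and -244 in Il17a (7.81% of all promoters). Il6 also held a C/EBP match at -128 and an NF-kB match at -44, which 10.8% and 8.46% of promoters hold. No STAT match (8.3% of promoters) lay in these 5 windows, and no 2 matches overlapped. A match describes the letters only. The table held promoters for Ifng, Il22 and Il18 as well, and the start listed for Il18 lies 10674 bases from that of its leading transcript.

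In TPM (transcript counts per effective length, scaled to a fixed total per library, a level corrected for transcript length), the cytokines spanned a wide range. Il18 had the highest median over the 26 samples, 100.1 TPM, and Il22 the lowest, 0.212 TPM. Il1b followed Il18 with a median of 59.6 TPM and Tnf with 7.62 TPM. Next came Il17a at 1.68 TPM, Il6 at 1.51 TPM and Il11 at 1.17 TPM, and then Ifng (0.514 TPM), Il10 (0.504 TPM) and Il23a (0.390 TPM). Il1b exceeded Tnf, and Tnf exceeded Il17a, in 26 of 26 samples. Below Tnf, neighbours in this order did not separate: Il17a exceeded Il6 in 11 of 26 samples and Il10 exceeded Il23a in 15 of 26. The first place changed with treatment. Il18 exceeded Il1b in 8 of 8 day 0 samples, with medians of 123.7 and 2.20 TPM, but in only 10 of the 18 samples of days 22 to 70, with medians of 93.5 and 97.5 TPM.

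**Figure D1:**
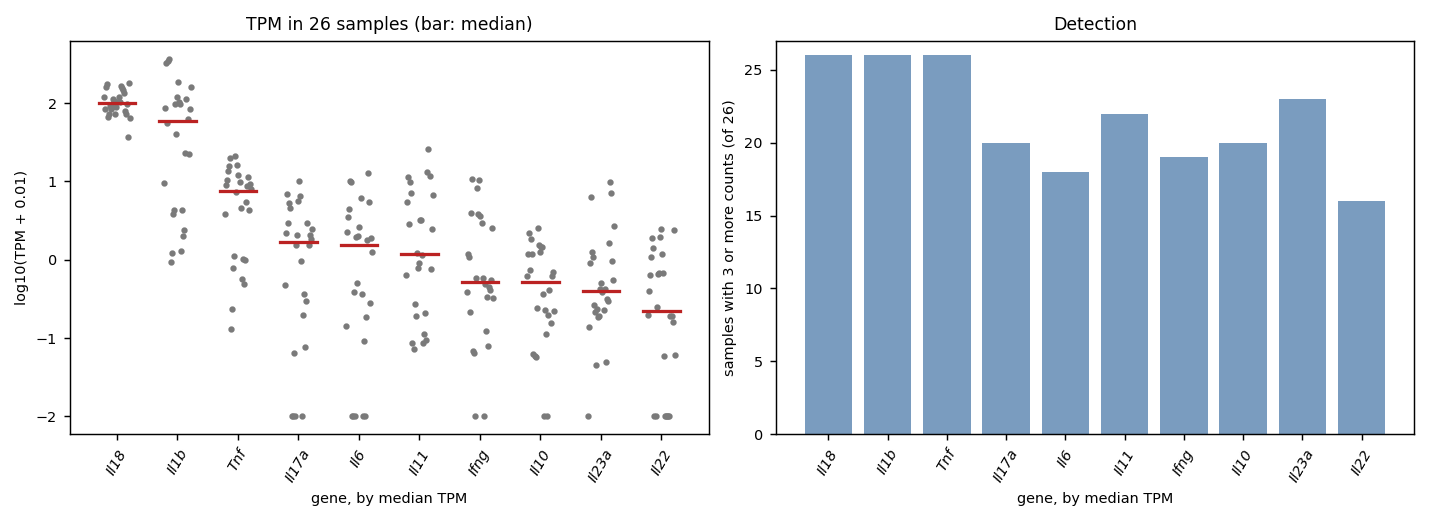
Left, TPM of each gene in the 26 samples on a log10 scale after adding 0.01, with the median as a bar; right, the number of samples in which the gene had 3 or more estimated counts. Il18, Il1b and Tnf reached 3 counts in all 26 samples, Il22 in 16.

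The genes near the detection limit, taken as a median estimated count under 10 per library, numbered 3: Il22 (median 3.5), Ifng (8.5) and Il10 (9.5). Il22 was listed at 0 in 7 of 26 samples and reached 3 counts in 16. Ifng and Il10 were each at 0 in 2 samples and reached 3 counts in 19 and 20. Just above the limit were Il23a (median count 11), Il6 (19.5), Il17a (28.0) and Il11 (41.3), and the counts of Il6, Il17a and Il11 were lowest at day 0. Il23a was as low at day 22, with median counts of 3.0 on the standard diet and 5.0 on the GW3965 diet against 5.0 and 6.5 at day 0. Tnf had a median of 220.0 counts, Il18 of 1283 and Il1b of 1493. At day 0 only Il18, Il1b and Tnf reached 3 counts in all 8 samples. A count of 0 allows up to 3 counts in a library, counting error only. All 10 genes passed edgeR's filter on low counts over the 8 groups, to which the injured groups contribute, so passing it is no result.

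Several features of the annotation bear on single genes. Il1b (chr2:129364570-129371139) overlaps exons of the antisense gene Il1bos, which has no transcript in the files, and Ifng (chr10:118441046-118445892) overlaps Gm49751. The strand setting is not given in the sources used here, so reads of overlapping genes cannot be told apart. Il18 (chr9:50554827-50581840) overlaps Bco2 and Tex12 through introns. Il22 (chr10:118204942-118210047) has a near-identical neighbour, Iltifb, with at most 7 counts in a sample, and reads could be split between them. Il11 lies at chr7:4772373-4782859, Tnf at chr17:35199381-35202007, Il6 at chr5:30013114-30019981, Il23a at chr10:128296139-128298752, Il17a at chr1:20730905-20734496 and Il10 at chr1:131019845-131024974. Most counts of each gene fell on 1 coding transcript, at least 82.2%, the share in Il18.

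The libraries held 18195345 to 41522204 estimated counts, with a median of 20424702. Ribosomal protein genes took 5.33% to 6.51% of counts at day 0 but 10.0% to 18.6% at day 43. RNA integrity (RIN) was 2.6 in replicate 1 of the standard diet at day 43, which is also the deepest library, 6.8 in replicate 2 of the GW3965 diet at day 43, and 7.8 or more elsewhere. Colonic epithelial markers (6 genes) were present in all samples. The summed level of 7 stratified epithelium markers rose from 3.09 to 5.76 CPM (counts scaled to a common library size by TMM) at day 0 to 160.0 to 3755 CPM at day 43. At day 70 it was 3055 to 20071 CPM in 5 of 6 samples and 5.19 CPM in replicate 2 of the GW3965 diet. Skeletal muscle markers reached 20820 CPM in replicate 1 of the GW3965 diet at day 70. Whether this tissue had a part in the cytokine values was not tested. In bulk tissue, fewer cells of a type and less RNA per cell cannot be told apart.

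The first comparison asked how the cytokines changed from untreated colon during AOM–DSS on each diet. All 17063 genes that passed the filter were tested (edgeR, quasi-likelihood F, Benjamini-Hochberg FDR < 0.05), and a call means passing this test. On the standard diet 6 of the 10 genes rose at day 22 (9.55% of all genes were called), all 10 at day 43 (55.1%) and 6 at day 70 (30.3%). In GW3965-fed mice 8 rose at day 22 (20.7% of all genes), 8 at day 43 (45.3%) and 7 at day 70 (21.5%). None fell. Il1b, Tnf, Il6, Il11 and Il17a were called in all 6 comparisons, Il10 in 5, Il22 in 4, Ifng in 3, Il23a in 2 and Il18 in 1. The median log2 fold change of the 10 genes at the successive days was 4.02, 6.01 and 4.25 on the standard diet and 4.88, 5.24 and 3.46 in GW3965-fed mice, and that of all genes was at most 0.14. With Il22 at its lower bound against the empty GW3965 day 0 libraries, the second of the GW3965 medians was 4.68 and the others stayed at 4.88 and 3.46. The ribosomal share follows the day: with it as a covariate, all day 43 calls were lost on either diet (0 of 10), but so were those of nearly all genes, with 0 and 160 of 17063 called. In that fit the log2 fold changes at day 43 were 5.66 and 5.2 for Il1b and 3.81 and 3.96 for Il10 (standard and GW3965 diet). They were 3.11 and 2.79 for Il6 and only 2.08 and 1.60 for Ifng. On the standard diet Il23a, Il22 and Il18 were at 1.71, 1.55 and 0.27. The counts at days 22 and 70 stayed at 6, 6, 8 and 7. The comparisons of a diet share its 4 day 0 samples, which came from a cage without injured samples.

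**Figure D2:**
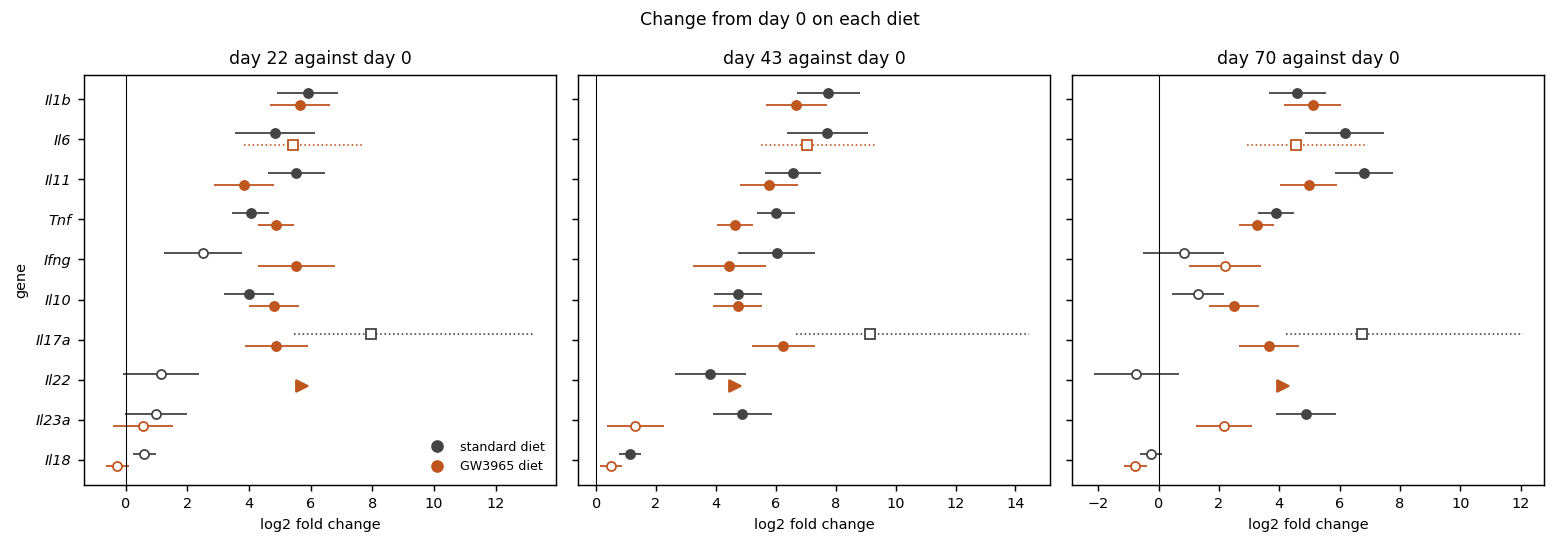
Log2 fold change from day 0 for each gene on the standard diet (grey) and the GW3965 diet (orange) at days 22, 43 and 70. Circles with bars are fitted values with their SE, filled where FDR < 0.05; open squares with dotted lines are count ratios with exact 95% counting intervals where the day 0 group held 1 to 3 counts, and triangles are lower bounds for Il22, which was at 0 in all 4 GW3965 day 0 libraries. All filled symbols lie to the right of 0.

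IL-1 family and TNF. Il1b was measured at 0.848, 1.23, 3.28 and 3.86 CPM in the standard-diet day 0 samples and at 9.99, 88.7 and 315 CPM at day 22. Levels were 105, 610 and 770 CPM at day 43 and 20, 95.4 and 52.6 CPM at day 70. Every injured sample lay above every day 0 sample, and the day 22 samples were the most widely spread. The log2 fold changes were 5.90 (SE 0.98), 7.74 (SE 1.05) and 4.60 (SE 0.93), with FDR of 0.00086, 6.4e-06 and 0.0012 (edgeR). In GW3965-fed mice Il1b was 1.23 to 3.33 CPM at day 0, then 98.4, 42.9 and 172 CPM at day 22, 300, 224 and 114 CPM at day 43 and 17.4, 67.3 and 128 CPM at day 70. These changes were 5.66 (SE 0.97), 6.69 (SE 1.01) and 5.10 (SE 0.95) on the log2 scale, again without overlap with day 0.

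Tnf, a cytokine of macrophages and T cells, changed in the same samples. In standard-diet mice it was 0.141, 0.283, 0.894 and 1.24 CPM at day 0 and 5.27, 13.1 and 13.5 CPM at day 22. It then reached 33.1, 36 and 54.5 CPM at day 43 and 6.05, 10.1 and 12.7 CPM at day 70. The groups did not overlap with day 0, and log2 fold changes were 4.05 (SE 0.59), 6.00 (SE 0.63) and 3.9 (SE 0.59). In GW3965-fed mice Tnf was 0.530 to 1.09 CPM at day 0, and 29.7, 10.2 and 31.9 CPM at day 22. The later values were 26, 27.6 and 7.25 CPM at day 43 and 4.76, 9.76 and 8.76 CPM at day 70, with changes of 4.87 (SE 0.60), 4.63 (SE 0.59) and 3.25 (SE 0.57). Tnf had the smallest SE of the 5 genes called throughout.

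Il18 behaved differently from Il1b, although both products are cut by the same enzyme. It was abundant in untreated colon, at 46.1 to 56.6 CPM on the standard diet and 65.9 to 90.2 CPM on the GW3965 diet, with no overlap between the diets. At day 43 it was 170, 64 and 87.9 CPM in standard-diet mice, which is 1.12 above day 0 on the log2 scale (SE 0.37, FDR 0.014). This single call rested on replicate 1, the library with RIN 2.6: without it the change was 0.62 (FDR 0.18). At day 70 the standard-diet values of 39.4, 36.7 and 48.4 CPM reached below the day 0 range but overlapped it. The GW3965 values at day 70 were 17.9, 83.5 and 31.8 CPM, the lowest in the library with 20820 CPM of muscle markers, and the change of -0.77 (SE 0.38) did not pass (FDR 0.16). Without replicate 2 of that group the change was -1.61 and passed (FDR 0.0019).

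IL-6 family. Il6 was nearly absent at day 0. On the standard diet its counts were 0, 0, 5 and 0, and in GW3965-fed mice 0, 1, 0 and 2. By day 22 the standard-diet samples held 2, 45 and 58 counts and the GW3965 samples 24, 9 and 58. Day 43 brought 222, 290 and 322 counts on the standard diet and 68, 166 and 7 on the GW3965 diet. At day 70 the counts were 19, 207 and 82 against 3, 38 and 20. The first standard-diet sample of day 22, with 2 counts, lay within the day 0 range, whereas the other injured samples of that diet lay above it. Log2 fold changes on the standard diet were 4.85 (SE 1.30, FDR 0.020), 7.72 (SE 1.34, FDR 7.5e-05) and 6.17 (SE 1.30, FDR 0.0015). Against the 3 counts of the 4 GW3965 day 0 libraries, the count ratio was 42.7 at day 22 (exact 95% counting interval 14.2 to 211), 133 at day 43 (44.9 to 648) and 23.4 at day 70 (7.63 to 117). All 3 changes passed (FDR 0.012, 0.00045 and 0.035). The day 22 call on the standard diet was lost in 5 of 7 fits that left out 1 sample, and so was the day 70 call on the GW3965 diet.

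Il11, which injured stroma is known to make, had counts in all libraries. In standard-diet mice it was 0.806, 9.22 and 17.9 CPM at day 22, 7.86, 25.7 and 23.9 CPM at day 43 and 17.7, 34 and 15.9 CPM at day 70. No injured sample reached down to the day 0 maximum of 0.383 CPM. Log2 fold changes were 5.53 (SE 0.92), 6.57 (SE 0.94) and 6.81 (SE 0.95), with FDR of 0.00086, 1.0e-05 and 6.3e-05. In GW3965-fed mice the levels were 2.08, 1.07 and 1.99 CPM at day 22, 7.29, 10.5 and 1.91 CPM at day 43 and 0.870, 2.76 and 7.67 CPM at day 70. These also lay above the day 0 range of 0.0491 to 0.221 CPM, with changes of 3.83 (SE 0.96), 5.76 (SE 0.96) and 4.97 (SE 0.95). The highest Il11 level of the 26 samples, 34 CPM, was that of a standard-diet sample at day 70.

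IL-23, IL-17A and IL-22. Il23a was called on the standard diet only, although the difference between the diets was not called. It was 0.0426 to 0.248 CPM in standard-diet day 0 samples and 0, 0.153 and 0.982 CPM at day 22 (FDR 0.61). At day 43 it was 12.2, 2.36 and 2.41 CPM and at day 70 1.47, 9.23 and 6.51 CPM. Both groups lay above day 0, with log2 fold changes of 4.88 (SE 0.98, FDR 0.00030) and 4.89 (SE 0.98, FDR 0.0010). The highest day 43 value came from the library with RIN 2.6, and without it the change was 3.62 (FDR 0.0035). In GW3965-fed mice Il23a was 0.0433 to 0.442 CPM at day 0, 0.294 to 0.881 CPM at day 43 and 0.870, 0.479 and 2.37 CPM at day 70. The day 70 samples lay above day 0, but the change of 2.17 (SE 0.92) did not pass (FDR 0.095). A transcript with a retained intron, Il23a-202, held 44.3% to 46.4% of the counts of the gene at day 0 with few counts there. At days 22, 43 and 70 the share was 7.17%, 4.14% and 6.99% on the standard diet and 50.8%, 16.3% and 5.12% on the GW3965 diet.

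Il17a, the signature cytokine of type 17 lymphocytes, had 0, 0, 1 and 0 counts in the standard-diet day 0 libraries. Later libraries held 8, 42 and 116 counts (day 22), 149, 153 and 154 counts (day 43) and 4, 51 and 27 counts (day 70). Against the single day 0 count the ratio was 248 at day 22 (exact 95% counting interval 43.9 to 9860), 565 at day 43 (100.9 to 22357) and 108 at day 70 (18.8 to 4299). In GW3965-fed mice the counts were 0, 3, 6 and 1 at day 0, followed by 27, 39 and 160 (day 22), 246, 177 and 21 (day 43) and 29, 34 and 51 (day 70). The log2 fold changes there were 4.89 (SE 1.01), 6.25 (SE 1.04) and 3.66 (SE 1.00), and all 6 changes of Il17a passed, with FDR of at most 0.012. Scaled to library size, the day 43 levels on the standard diet were 4.63, 8.19 and 8.25 CPM, the lowest in the library with RIN 2.6.

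Il22 was the gene closest to the detection limit. It was at 0 in all 4 GW3965 day 0 libraries and had 0, 0, 4 and 9 counts on the standard diet. In GW3965-fed mice it held 11, 34 and 66 counts at day 22, at least 52.1-fold higher than the limit of 3 counts over the 4 day 0 libraries. At day 43 it held 27, 17 and 1 counts (at least 24.8-fold higher) and at day 70 2, 42 and 1 counts (at least 17.2-fold higher). The 3 changes passed (FDR 0.0038, 0.0035 and 0.016). At day 70, 42 of the 45 counts came from replicate 2, and without that library the call was lost (FDR 0.23). On the standard diet Il22 held 3, 7 and 10 counts (day 22), 52, 50 and 44 counts (day 43) and 0, 3 and 3 counts (day 70), and only day 43 passed (log2 fold change 3.81, SE 1.19, FDR 0.011).

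IFN-gamma and IL-10. Ifng held at most 9 counts in any day 0 library. In standard-diet mice it was 0.107, 1.22 and 0.982 CPM at day 22, 0.342, 6.26 and 20.2 CPM at day 43 and 0.0526, 0.348 and 0.296 CPM at day 70. Only day 43 passed (log2 fold change 6.02, SE 1.28, FDR 0.00051), and its lowest sample lay within the day 0 range of 0 to 0.446 CPM. In GW3965-fed mice Ifng was 6.74, 3.71 and 14.3 CPM at day 22, 5.35, 5.68 and 0.637 CPM at day 43 and 0.409, 1.8 and 0.212 CPM at day 70. The day 22 change of 5.53 (SE 1.24, FDR 0.0038) and the day 43 change of 4.44 (SE 1.21, FDR 0.0054) passed, without overlap with day 0, and that of day 70 did not (2.20, SE 1.20, FDR 0.20).

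Il10 had 0 to 4 counts per day 0 library. It was 0.645, 1.32 and 2.22 CPM on the standard diet at day 22 and 1.34, 3.27 and 2.41 CPM at day 43, with log2 fold changes of 3.99 (SE 0.80, FDR 0.0034) and 4.73 (SE 0.80, FDR 6.0e-05). At day 70 the values of 0.158, 0.348 and 0.127 CPM overlapped those of day 0 (FDR 0.27). In GW3965-fed mice Il10 was 2.67, 1.66 and 1.86 CPM at day 22, 2.41, 3.04 and 0.441 CPM at day 43 and 0.512, 0.553 and 0.177 CPM at day 70. The changes were 4.81 (SE 0.82), 4.73 (SE 0.82) and 2.49 (SE 0.83, FDR 0.036), and the last was lost in 5 of 7 fits that left out 1 sample.

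**Figure D3:**
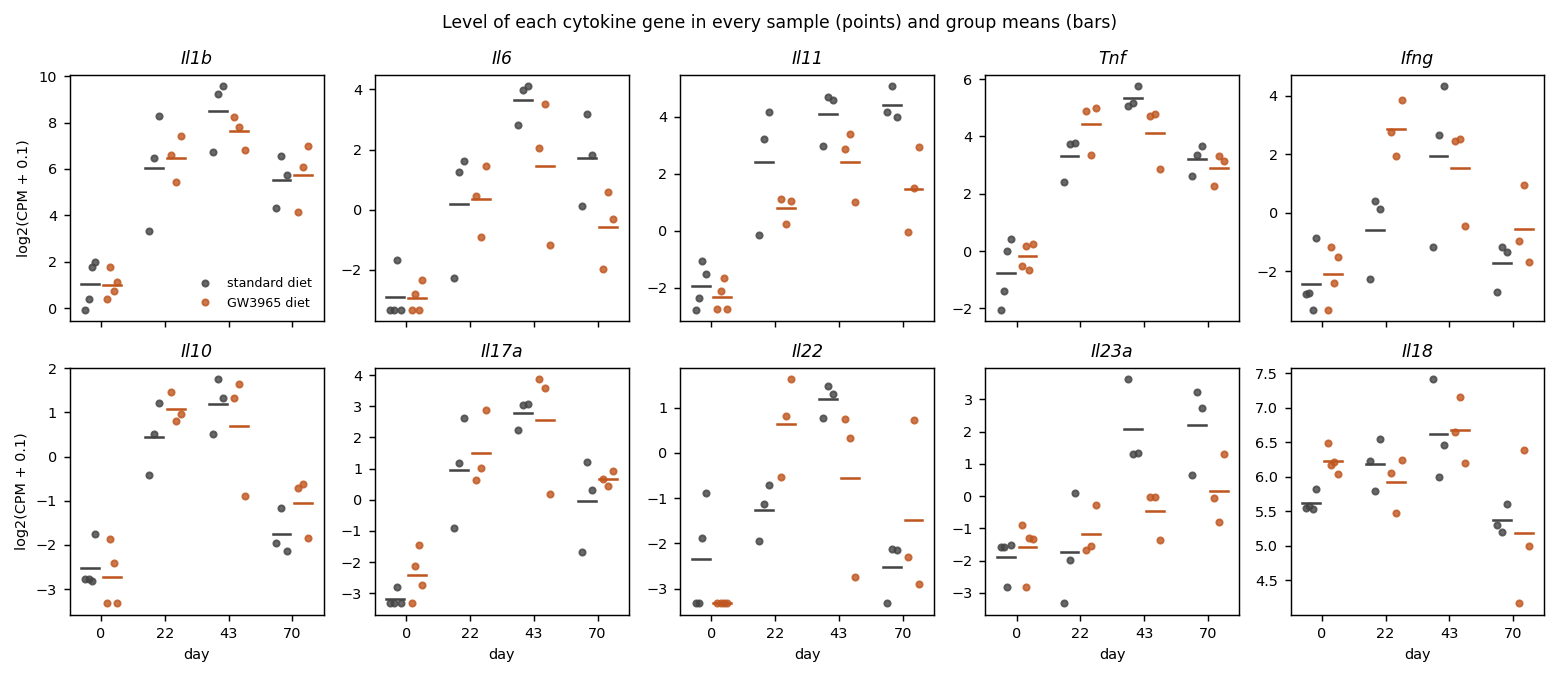
Level of each gene in every sample as log2(CPM + 0.1) by day, for the standard diet (grey) and the GW3965 diet (orange), with the mean of each group on this scale as a bar. The standard-diet samples of days 43 and 70 lie above the day 0 samples for Il1b, Tnf, Il6, Il11, Il17a and Il23a. At day 70 Ifng and Il22 are highest in 1 GW3965 sample, with 1.8 and 1.55 CPM.

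The comparison of day 70 with day 43 was added after the data had been seen. On the standard diet 7 of the 10 genes fell (49.7% of all genes were called). The log2 fold change was -5.19 for Ifng (SE 1.36, FDR 0.0035), -4.55 for Il22 (SE 1.41), -3.42 for Il10 (SE 0.82), -3.14 for Il1b (SE 0.96), -2.54 for Il17a (SE 0.94), -2.10 for Tnf (SE 0.58) and -1.37 for Il18 (SE 0.41). Il11 and Il23a did not pass, with changes of 0.23 (SE 0.78) and 0.01 (SE 0.89), nor did Il6 (-1.55, SE 1.06). The count was 4 without replicate 1 of day 70. In GW3965-fed mice 3 genes fell (39.2% of all genes), Il10, Il17a and Il18. That count depended on each single library: it was 1, 0 and 5 without replicate 1, 2 or 3 of day 43 and 1, 5 and 0 without replicate 1, 2 or 3 of day 70. With the ribosomal share as a covariate no gene was called on either diet.

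The second comparison asked whether the diets differed at the same day, with the ribosomal protein share of each library as a covariate. The study's model held the percentage of ribosomal RNA, for which this share stands in here. None of the 10 genes passed at any day. The background was low as well: the share of all genes called was 0.0293% in untreated colon, 0.135% (day 22), 0.0293% (day 43) and 1.83% (day 70). Of the 40 tests, 4 had an unadjusted p under 0.05 (Il22 at day 0, Il11 and Ifng at day 22, Il11 at day 70), and DESeq2 called 0 of the 10 cytokines at each day. These results do not show that the diets acted alike, since the median SE of a gene's difference was between 0.41 for Il18 and 1.36 for Il22 on the log2 scale.

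**Figure D4:**
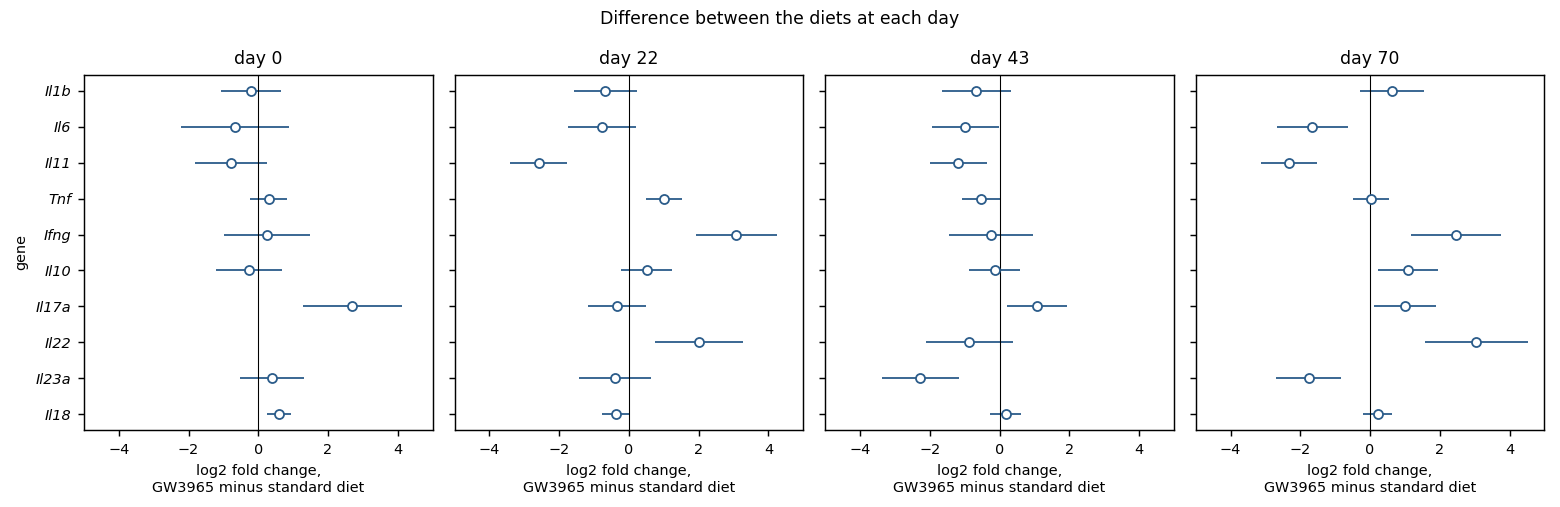
Log2 fold change of the GW3965 diet over the standard diet at each day, with its SE; open circles mark FDR of 0.05 or more, and Il22 at day 0 is left out because all GW3965 samples were at 0. The points for Il11 and Il6 lie to the left of 0 on each day, and no symbol is filled.

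Il11 was lower on the GW3965 diet at each of the 4 days, by fitted log2 differences from -0.79 at day 0 to -2.59 at day 22. The differences of Il6 were negative at each day as well, from -0.67 at day 0, where both genes had few counts, to -1.66 at day 70. With single samples left out, those of Il6 reached 2.58 at day 0, 0.21 at day 22 and 0.51 at day 43. Only its day 70 difference kept its sign in all of these fits. Those of Il11 stayed negative but reached -0.03 at day 43. At day 22 the means of Il11 were 1.72 CPM on the GW3965 diet and 9.30 CPM on the standard diet. The log2 difference was -2.59 (SE 0.82, FDR 0.23), and the lowest standard-diet sample lay below all 3 GW3965 samples. Without replicate 3 of the standard diet the day 22 difference was -1.43, and over all samples left out singly it ranged from -3.10 to -1.43. At day 70 the highest GW3965 sample of Il11, 7.67 CPM, was below the lowest standard-diet sample, 15.9 CPM (-2.33, SE 0.80, FDR 0.13). The day 70 difference ranged from -3.22 to -1.91 when single samples were left out, and it passed without replicate 3 of the GW3965 diet (FDR 0.041). Il11 was the only one of the 10 genes whose diets did not overlap at day 70, where 19.1% of all genes did not.

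Il23a showed values of the same sign at the later days. The means were 0.685 and 5.67 CPM at day 43 (log2 difference -2.27, SE 1.11, FDR 0.58) and 1.24 and 5.74 CPM at day 70 (-1.75, SE 0.93, FDR 0.32). Without the RIN 2.6 library the day 43 difference was -1.22, and without both libraries of RIN under 7 it was -0.63. Il6 was also lower on the GW3965 diet at day 70, with a difference of -1.66 (SE 1.02, FDR 0.39), which was -0.82 without replicate 2 of the standard diet and -2.67 without replicate 2 of the GW3965 diet.

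Ifng and Il22 pointed the other way at days 22 and 70. At day 22 Ifng was 3.71 CPM or more in the GW3965 samples and 1.22 CPM or less in the standard-diet samples, a log2 difference of 3.08 (SE 1.16, FDR 0.35). Il22 had means of 1.75 and 0.345 CPM at that day (2.00, SE 1.26, FDR 0.63), and these were the 2 genes without overlap of the diets, against 23.6% of all genes. At day 70 the differences were 2.46 (SE 1.29, FDR 0.31) and 3.05 (SE 1.47, FDR 0.27). Without replicate 2 of the GW3965 diet they were 0.95 and -0.04. At day 43 Tnf, Il22 and Il23a did not overlap between the diets (10.9% of all genes) and were lower on the GW3965 diet. Il22 thus had the reverse sign there, with a log2 difference of -0.86 (SE 1.25, FDR 0.88). At day 0 only Il18 did not overlap (2.29%), and it was higher on the GW3965 diet. Il1b, with differences from -0.68 to 0.63 over the 4 days, and Tnf, from -0.52 to 1.01, stayed within 2 SE of 0.

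Whether the diet effect at a later day differed from that at day 0 was tested as an interaction. None of the 10 genes passed at day 22 (0.0234% of all genes called), day 43 (0.0%) or day 70 (0.0%). Il22 alone had an unadjusted p under 0.05, at days 22 and 70, where its GW3965 day 0 group is empty, and DESeq2 called it at day 70 (adjusted p = 0.041) and called 0 of the 10 at days 22 and 43.

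The signalling partners of the cytokines were taken from lists of known genes. Of 9 genes that process IL-1 beta and IL-18, 5 rose and 2 fell on the standard diet at day 43 and 4 rose and 2 fell on the GW3965 diet. The sensor Nlrp3 rose on both diets at day 70, by log2 fold changes of 2.42 (SE 0.67) and 2.40 (SE 0.67), and Casp4, an inflammatory caspase, by 2.38 (SE 0.31) and 2.16 (SE 0.31) at day 43. Nlrp6, an epithelial sensor, fell by 3.13 (SE 0.53) at day 43 and by 1.39 (SE 0.49) at day 70 on the standard diet. Of 19 receptors tested, 8, 8 and 4 rose on the standard diet at days 22, 43 and 70 and 6, 8 and 7 on the GW3965 diet. Receptors also fell, 3 (day 43) and 3 (day 70) on the standard diet and 2 (day 43) on the GW3965 diet, and 55.1% and 45.3% of all genes were called at day 43. The decoy receptor Il1r2 rose at day 70 from 0.460 to 8.43 CPM on the standard diet and from 0.408 to 10.3 CPM on the GW3965 diet. Il18r1, a receptor chain for IL-18, rose on the GW3965 diet at day 70 by 2.05 (SE 0.36).

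The lists of known targets are given as counts, and no test linked them to the cytokines. Shares of all genes called in the same comparisons were 9.55%, 55.1% and 30.3% on the standard diet and 20.7%, 45.3% and 21.5% on the GW3965 diet. Of 10 NF-kB targets of IL-1 and TNF, 9, 9 and 7 rose on the standard diet and 10, 9 and 7 on the GW3965 diet. Cxcl5, a neutrophil attractant, rose at day 70 from 2.44 to 170 CPM on the standard diet and from 1.94 to 353 CPM on the GW3965 diet. Of 10 STAT3 targets, 6, 7 and 7 rose on the standard diet, with 1 lower at day 70, and 7, 7 and 7 on the GW3965 diet. Socs3, a feedback inhibitor, rose at day 70 by 2.83 (SE 0.45) and 3.94 (SE 0.47). Of 10 IFN-gamma targets, 6, 8 and 2 rose on the standard diet and 10, 10 and 8 on the GW3965 diet, and no difference between the diets passed for any of them. Ifng itself was not called on the standard diet at days 22 and 70 or on the GW3965 diet at day 70. Cxcl9, an attractant of T cells, was 13.9 CPM at day 70 on the standard diet against 2.86 CPM at day 0, and 39.0 against 2.60 CPM on the GW3965 diet. Median log2 fold changes of these targets were 0.44 and 1.88 at day 70. Of 19 other cytokines and antagonists tested, 10, 14 and 5 rose on the standard diet, with 1 lower at day 70, and 10, 16 and 11 on the GW3965 diet, among them Osm, a cytokine of the IL-6 family (3.41, SE 0.85, and 3.84, SE 0.89, at day 70).

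In these lists 3 genes of cytokine signalling passed between the diets, all at day 70 and all higher on the GW3965 diet. They were 1 of 19 receptors tested, 1 of 19 other cytokines and antagonists and 1 of 10 NF-kB targets. Between the diets at that day 312 of all genes (1.83%) were called, 298 higher on the GW3965 diet and 14 lower. Il22ra2, the soluble decoy receptor that binds IL-22, was 0, 0.131 and 0.127 CPM on the standard diet and 0.461, 7.99 and 0.883 CPM on the GW3965 diet (log2 difference 5.33, SE 1.13, FDR 0.026). It had fallen on the standard diet from a mean of 7.76 CPM at day 0. Il12b, which encodes the p40 subunit shared by IL-12 and IL-23, was 0.158, 0.131 and 0.169 CPM against 0.717, 3.43 and 0.565 CPM (3.56, SE 0.82, FDR 0.035). Thus the 2 subunit genes of IL-23 had differences of opposite sign at day 70, of which that of Il23a did not pass. Nfkbiz, an NF-kB cofactor that IL-1 and IL-17A induce, was 64.9, 63.7 and 69.9 CPM against 118.9, 125.5 and 105.3 CPM (0.91, SE 0.23, FDR 0.049). The groups did not overlap for any of the 3, nor did those of 19.1% of all genes at day 70. Each call was lost in 4 or 5 of the 6 fits that left out 1 sample. That of Nfkbiz was also lost with a replicate block (adjusted p = 0.052) and without the ribosomal term (adjusted p = 0.059). Without replicate 2 of the GW3965 diet the differences of Il22ra2 and Il12b were 3.09 and 2.25.

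Marker lists of cells that can make these cytokines are given beside them. The summed level of 8 neutrophil genes was 96.5 to 245 CPM at day 0, 833 to 12002 CPM at day 43 and 278 to 1241 CPM at day 70. Markers of T cells and innate lymphoid cells (10 genes) were 49.5 to 93.1 CPM at day 0, 138 to 199 CPM at day 22 and 71.0 to 233 CPM at day 43. At day 70 they were 16.9, 30.7 and 29.6 CPM on the standard diet and 82.9, 124 and 37.2 CPM on the GW3965 diet. The highest of these was replicate 2, the library with the most Ifng and Il22 of that day. Cd4 and Ccr6, 2 of the 10 genes of this list, passed between the diets at day 70 (FDR 0.045 and 0.043). At that day 1.83% of all genes were called between the diets. Each of these 2 calls was lost in 4 of the 6 fits that left out 1 sample and with a replicate block (adjusted p = 0.056 and 0.061). Ccr6 had a log2 difference of 3.99, and of 2.29 without replicate 2 of the GW3965 diet. For the counts of calls against day 0 that follow, the shares of all genes called were 9.55%, 55.1% and 30.3% on the standard diet. On the GW3965 diet they were 20.7%, 45.3% and 21.5%. Of 6 fibroblast genes, 3, 4 and 2 rose on the standard diet and 1, 3 and 2 on the GW3965 diet at the 3 successive days. Their summed level on the GW3965 diet at day 22, 1027 to 1352 CPM, lay within the day 0 range of 895 to 1352 CPM, although Il11 was called there. Of 6 colonic epithelial genes, 3 fell on the standard diet and 2 on the GW3965 diet at day 43, and none was called at days 22 and 70. Neither day 43 count exceeds the share of all genes called. Of 8 monocyte and macrophage genes, 3, 7 and 2 rose on the standard diet and 6, 7 and 3 on the GW3965 diet at days 22, 43 and 70. The part of these cells in the cytokine values was not tested.

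For the 7 cytokines with a median count of 10 or more, the genes with the most similar pattern were found by Pearson's r of log2 CPM over the 26 samples. The samples share day and depth, and r is given as a description. Il1b was most like Clec4e (r = 0.986), Acod1 (0.977) and Clec4d (0.976), and Tnf like Tnfrsf9 (0.961), Il1b (0.958) and Ifi47 (0.955). Il6 was most like Cxcl1 (0.956), Saa3 (0.945) and Cxcl2 (0.942). The closest genes to Il11 were Mmp10 (0.948), Pimreg (0.947) and Wfdc18 (0.944), and those to Il17a were Lilrb4a (0.946), Clec4e (0.942) and Gsap (0.942). Il23a was most like the low-count defensin genes Defa32 and Defa37 (0.923 each), whose reads near-identical copies could share, and T (0.923). Il18 stood apart in having lower values, with Dram2 (0.899), Dqx1 (0.898) and Lrrc19 (0.877).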

How the data were processed

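Bulk RNA-seq of 26 mouse colon samples in 8 groups of diet and day was analysed. Per the labels and the paper's methods, Kallisto assigned the paired-end reads to GRCm38 cDNA. The authors deposited estimated counts (expected counts) and TPM for 119414 transcripts, without normalization of the counts. The version and the strand setting are not given in the sources used here. Of these transcripts 116728 were matched by identifier to 35975 GENCODE vM21 genes, and 0.615% to 0.999% of counts per sample stayed unmatched. Counts were summed by gene and rounded. Low depth limits genes with few counts: counting intervals cover counting error only.

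Genes were kept by filterByExpr (17063) and scaled by TMM. Differences were tested with edgeR 4.0.16 (quasi-likelihood F-test, Benjamini-Hochberg, FDR < 0.05) in R 4.3.3 over all 8 groups. Comparisons of the diets included as a covariate the ribosomal share, which is the percentage of a library's counts that 88 ribosomal protein genes take, and comparisons of days did not. The SE is the log2 fold change divided by the root of F. DESeq2 1.42.0 was an alternative. Python 3.11.15 with pandas 2.3.3, scipy 1.17.1 and matplotlib 3.10.9 made tables and figures. The fits were also run on simulated counts. Each gene had a single mean over all samples there, apart from genes changed on the GW3965 diet at day 70. No other effect of day was set, so these runs do not bear on the cytokine fits. The exact test planned for genes outside the filter applied to 0 genes.

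The cytokines and the lists were chosen with earlier results of these data known. All 10 cytokines are named. From each list, genes with FDR < 0.05 in a comparison could be named, at most 4 per list and comparison by smallest p. For cytokines with a median count of 10 or more, the 3 genes of highest r are named. The study's reporting summary states that bulk RNA-seq samples were pools of 2 to 3 biological replicates, whereas a figure legend gives mice per timepoint. The labels name no animals, so p-values measure the spread between these samples. Replicate numbers do not pair the samples: same-numbered samples of the 2 diets had a mean correlation of -0.066 over 13 pairs.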

Additional observations from a re-analysis of the deposited data

Results flagged for a closer look

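In 6 of the 20 day 0 groups of a gene on a diet, 1 of the 4 samples stood far from the others by Dixon's ratio at the 95% level. The usual chance rate of about 1 group in 20 holds for continuous values and says nothing about these 6, since several hold tied zeros or a few counts. All 6 were on the standard diet. Il6 was 0.213 CPM in 1 sample and 0 in the other 3, and Il17a was 0.0426 CPM in 1 and 0 in the other 3, which are 5 counts and 1 count. Ifng was 0.446 CPM against at most 0.0472 CPM in the others, Il10 was 0.198 CPM against at most 0.0472 CPM, and Il18 was 56.6 CPM against at most 47.6 CPM, all 3 in replicate 2 after 43 days of diet. Il23a was 0.0426 CPM in 1 sample against 0.236 CPM or more in the others.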

How the results depend on the processing

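The main limit is depth at day 0, where 7 of the 10 genes have few or no counts, so that their fitted changes depend on single reads. With a limit of a median count under 5, 1 gene (Il22) lay near the detection limit, and with 20 there were 5. Adding the ribosomal percentage as a covariate left 0 of 10 calls at day 43 on the standard diet and 0 on the GW3965 diet. In that fit 0 and 160 of all 17063 genes were called. Il1b kept log2 fold changes of 5.66 and 5.2 there, whereas those of Ifng fell from 6.02 and 4.44 to 2.08 and 1.60. For day 70 against day 43 the covariate left 0 calls on both diets. The changes of Tnf (0.078) and Il17a (1.00) on the standard diet and of Il17a (0.92) on the GW3965 diet also turned positive. The ribosomal share and the day cannot be told apart at day 43. DESeq2 called 1 gene, Il22, in the interaction at day 70. The number of all genes called between the diets at day 70 was 312 and was 0 in a fit of those 6 samples alone, 8 with a replicate block, 524 without the ribosomal term and 1170 with DESeq2, none with a call among the 10. Without single samples the calls numbered 5 to 6, 9 to 10 and 6 on the standard diet at days 22, 43 and 70, 7 to 8, 8 and 5 to 6 on the GW3965 diet, 0 to 1 for the diets at day 70 and 0 for the other differences between diets and interactions. For day 70 against day 43 they numbered 4 to 7 and 0 to 5. With a replicate block, Il6 at day 22 on the standard diet was no longer called (adjusted p = 0.052), which left 5 calls, and the counts for the other comparisons of the 10 genes from day 0 and between diets were as without it. Without the samples of RIN under 7, the day 43 calls were 9 and 8. TPM recomputed from counts and effective lengths differed from the deposited values by less than 1 SD for each gene. Other normalization changed no count, and for the GW3965 diet at day 70, 6 genes in place of 7 were called with no filter and 5 in a fit of the compared groups alone.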

Other observations

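Within the standard-diet day 0 group, the 2 samples after 22 days of diet and the 2 after 43 days differed in Tnf (0.141 and 0.283 against 0.894 and 1.24 CPM) in Il1b (0.848 and 1.23 against 3.28 and 3.86 CPM), in Il11 (0.0471 and 0.0944 against 0.383 and 0.248 CPM) and in Il22 (0 and 0 against 0.170 and 0.446 CPM), without overlap. The other 6 cytokines overlapped. In the GW3965 day 0 samples no cytokine separated these times. With 2 samples on each side no test was run, and the share of all genes that separate in this way was not computed. The separation is thus no result about these cytokines, and Il11 and Il22 held few counts in these samples.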
